A study of Mus musculus with 16 samples.

Results

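The 10 genes described here are linked to endothelial tip cells and angiogenic sprouting and were followed through the RNA sequencing of mouse lung endothelial cells (MLECs): *Apln*, *Aplnr*, *Cxcl12*, *Cxcr4*, *Adm*, *Pdgfb*, *Unc5b*, *Robo4*, *Esm1* and *Igfbp3*. They were chosen by name, as the rows of the deposited count table that carry these symbols. This gave 10 of the 55414 genes listed, each with 1 row, and all 10 had enough reads to be tested. The cells came from 4 independent isolations, and each isolation gave 4 libraries, 1 for each group, so that 16 libraries were sequenced. The question behind the design was which genes respond to BMP9 through endoglin (ENG), a co-receptor for BMP9 on endothelial cells, and which respond without it.

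All 4 groups were primary lung microvascular endothelial cells of *Rosa26-CreERT2;Eng fl/fl* mice on a C57BL/6 background that carry the Immorto transgene, an interferon-inducible immortalising gene, and all were enriched with beads against CD31 and then ICAM2. Cre is driven from the *Rosa26* locus and not from an endothelial promoter, and acts once 4-OH-tamoxifen is added. Control cells (Ctrl, labelled WT) received vehicle, whereas knockout cells (KO) received 4-OH-tamoxifen, and both were expanded in medium with interferon-γ and the ALK4/5/7 inhibitor SB431542 before these were removed and serum was lowered overnight. The Ctrl PBS and KO PBS groups received PBS. The Ctrl sENG(M):BMP9 group was given the complex of BMP9 with a monomer of the soluble ENG ectodomain, and the KO pro:BMP9 group was given the complex of BMP9 with its prodomain. The dose, counted as growth factor domain, was 0.2 ng/ml in both, and cells were harvested after 1.5 hours. Loss of *Eng*, exposure to 4-OH-tamoxifen and, in ligand-treated cells, the form of the ligand therefore coincide and cannot be told apart. Ages of the mice were not given in the sources used here.

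A growing vessel is led by tip cells, which extend filopodia toward vascular endothelial growth factor, and is lengthened by stalk cells behind them, in which Notch and BMP signalling hold back the tip cell programme. Apelin (*Apln*), endocan (*Esm1*), CXCR4, UNC5B and PDGF-B are widely used marks of tip cells in the retina and in tumours. Adrenomedullin (*Adm*) and CXCL12 act on endothelial receptors, ROBO4 stabilises vessels, and IGFBP3 carries insulin-like growth factors and is secreted by many endothelial cells in culture.

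Library totals lay between 14869115 and 17242117 counts. *Eng* reads fell in KO cells, by 3.15 on the log2 scale in PBS (SE 0.11) and by 2.40 with ligand (SE 0.10), in 4 of 4 isolations each (edgeR, adjusted p = 2.7e-12 and 1.0e-10). KO cells kept 632 to 1017 *Eng* counts in PBS and 1667 to 2063 with pro:BMP9. *Eng* reads rose with ligand, by 1.23 in KO cells (SE 0.11) and by 0.48 in Ctrl cells (SE 0.095, edgeR adjusted p = 2.8e-07 and 0.0016). Among the 9 endothelial markers, *Cdh5* lay between 1449 and 2790 CPM (counts per library scaled to a common total by the TMM method) and *Pecam1* between 703 and 1947 CPM. Others were lower, with *Tek* between 43.3 and 95.8 CPM, *Kdr* between 26.2 and 209 CPM and *Vwf* between 2.83 and 43.0 CPM. Of the 6 leukocyte markers, *Ptprc* had at most 5 counts in any library, while *Cd68* lay between 27.3 and 40.2 CPM and *Lyz2* between 3.07 and 13.5 CPM, and the list summed to 34.1 to 49.8 CPM. Of the 6 epithelial markers, *Epcam* and *Sftpc* had at most 4 and 0 counts, while *Krt18* lay between 46.0 and 177 CPM and *Krt8* between 1.70 and 44.9 CPM, and the list summed to medians of 139, 172, 75.5 and 52.5 CPM in isolations 1 to 4. The lymphatic marker *Lyve1* lay between 3036 and 5712 CPM and *Prox1* between 6.34 and 66.1 CPM. *Prox1* reached at least 43.7 and 49.8 CPM in isolations 1 and 2, but at most 17.5 and 7.05 CPM in isolations 3 and 4. *Flt4* and *Pdpn* were likewise higher in isolations 1 and 2 than in isolations 3 and 4. *Lyve1* of isolation 4 overlapped that of isolation 1, and *Ccl21a*, at most 2.64 CPM, was higher in isolations 3 and 4. The 9 mural and fibroblast markers were all present, and their summed level had a median of 105 CPM in isolation 2 against 700, 750 and 524 CPM in isolations 1, 3 and 4. The 3 mesothelial markers summed to medians of 4.96 CPM in isolation 2 and 267, 158 and 27.6 CPM in isolations 1, 3 and 4. In bulk libraries, fewer cells of a type and less RNA per cell cannot be told apart.

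Per base of gene length (FPKM, the CPM divided by the deposited gene length in kilobases), *Igfbp3* was the most abundant of the 10 genes, with a mean of 150 FPKM over the 16 libraries (range 78.2 to 255). *Unc5b* followed at 77.8 FPKM (30.5 to 111) and *Adm* at 57.6 FPKM (23.9 to 109). *Robo4* averaged 38.6 FPKM (16.9 to 63.8), *Pdgfb* 30.5 FPKM (18.3 to 45.2) and *Apln* 25.7 FPKM (21.2 to 28.9). These 6 genes had at least 666 counts in every library, and the ranges of neighbours in this order overlapped. *Cxcl12* stood at 12.5 FPKM (6.38 to 21.3), *Cxcr4* at 4.90 FPKM (1.4 to 11.1) and *Esm1* at 2.50 FPKM (0.17 to 6.42). *Aplnr* was close to absent, at 0.13 FPKM (0.034 to 0.41) from 2 to 25 counts. *Apln*, *Cxcl12* and *Pdgfb* were therefore read at higher mean levels per length than the receptor genes *Aplnr*, *Cxcr4* and *Pdgfrb* (10.3 FPKM), respectively. This did not hold for *Ackr3*, which encodes a further CXCL12 receptor and averaged 47.9 FPKM, above *Cxcl12*.

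**Figure D1:**
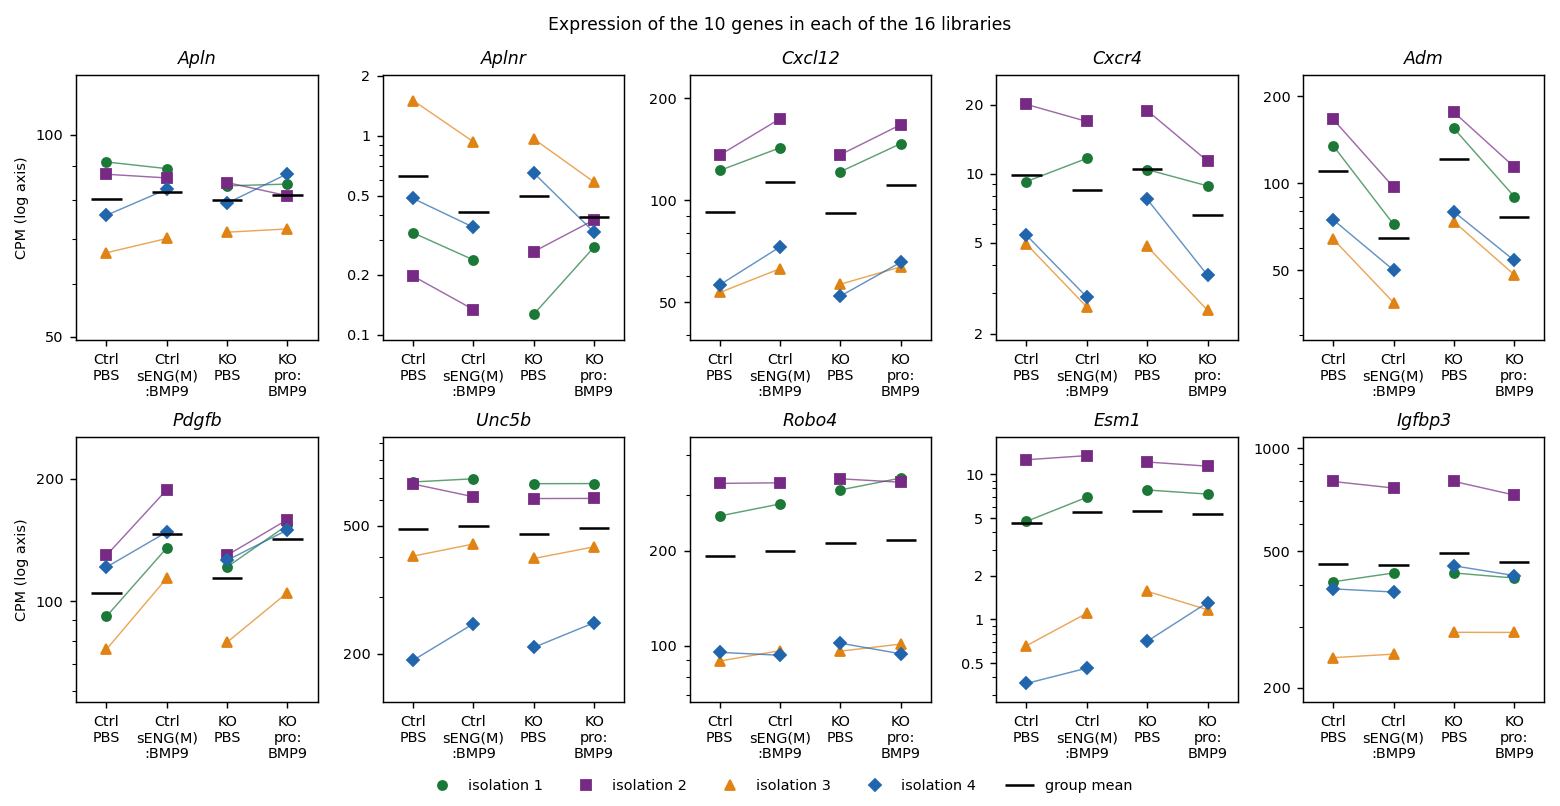
Level of each of the 10 genes in each of the 16 libraries, in CPM on a log axis with its own range for each gene, with 1 colour and marker for each isolation, a thin line joining the PBS and ligand libraries of an isolation, and a black bar for the mean of the 4 libraries of a group. The lines of *Adm* fall and those of *Pdgfb* and *Cxcl12* rise in both Ctrl and KO cells. The points of *Unc5b*, *Robo4*, *Esm1* and *Igfbp3* differ more between isolations than between groups, although some isolations overlap.

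With sENG(M):BMP9 in Ctrl cells, 3 of the 10 genes passed the test: *Pdgfb* and *Cxcl12* were higher and *Adm* was lower. Over all 15693 tested genes, 1521 passed (9.69%), 920 of them higher (5.86%) and 601 lower (3.83%). With pro:BMP9 in KO cells the count was 4 of 10, with *Pdgfb* and *Cxcl12* higher and *Adm* and *Cxcr4* lower, against 878 of all tested genes (5.59%), 577 higher (3.68%) and 301 lower (1.92%). The median log2 fold change of the 10 genes was 0.04 for Ctrl and -0.01 for KO cells, beside -0.01 and 0.00042 over all tested genes, so the 10 genes did not move one way as a list. The same direction as the fit in 4 of 4 isolations, reported below for single genes, held for 26.6% of all tested genes in Ctrl cells and 23.7% in KO cells. Tests were edgeR quasi-likelihood tests with the isolation as a block, adjusted over all tested genes by the Benjamini-Hochberg method, with a threshold of 0.05. Without the isolation as a block, none of the 10 genes passed in either comparison, and 167 and 91 of all tested genes did.

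**Figure D2:**
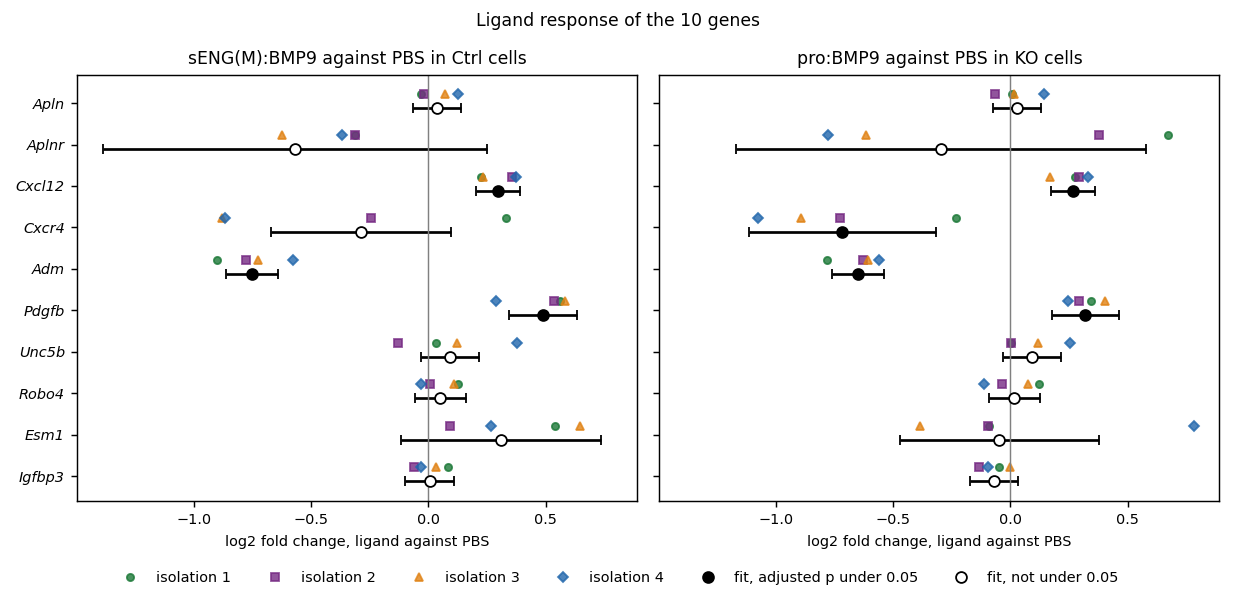
Log2 fold change of each gene with ligand against PBS, in Ctrl cells (left) and KO cells (right), with small coloured markers for the 4 isolations and circles with bars for the fit and its 95% interval, filled where the adjusted p was under 0.05. The 4 markers of *Adm* lie below 0 and those of *Pdgfb* and *Cxcl12* above 0 in both panels, and *Cxcr4* spreads from -0.88 to 0.33 in Ctrl cells.

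The proximal promoters of *Adm*, *Cxcl12* and *Cxcr4* are shown because these genes are among the members that moved with ligand. Each is the 250 bases upstream of the start of the canonical transcript in the GENCODE annotation, read from the GRCm39 genome, which is also the build of the count table. The 3 motifs searched on both strands were GGCGCC, a GC-rich element bound by SMAD1 and SMAD5 (its own reverse complement), CAGAC, the SMAD-binding core, which reads GTCTG on the other strand, and ACGTG, which reads CACGT on the other strand, the core of the hypoxia response element. Capitals mark the matches. The windows are chr7:110226608-110226857 on the plus strand for *Adm*, chr6:117145246-117145495 on the plus strand for *Cxcl12* and chr1:128520045-128520294 on the minus strand for *Cxcr4*.
Adm: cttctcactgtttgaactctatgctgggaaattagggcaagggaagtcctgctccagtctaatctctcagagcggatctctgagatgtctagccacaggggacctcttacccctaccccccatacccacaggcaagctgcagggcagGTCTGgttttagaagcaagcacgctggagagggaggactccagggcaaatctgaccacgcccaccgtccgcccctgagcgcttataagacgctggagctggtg
Cxcl12: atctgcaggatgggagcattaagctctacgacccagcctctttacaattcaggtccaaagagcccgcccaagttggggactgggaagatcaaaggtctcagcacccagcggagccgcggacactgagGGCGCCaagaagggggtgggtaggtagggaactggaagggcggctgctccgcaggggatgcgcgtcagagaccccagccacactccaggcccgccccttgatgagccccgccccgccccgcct
Cxcr4: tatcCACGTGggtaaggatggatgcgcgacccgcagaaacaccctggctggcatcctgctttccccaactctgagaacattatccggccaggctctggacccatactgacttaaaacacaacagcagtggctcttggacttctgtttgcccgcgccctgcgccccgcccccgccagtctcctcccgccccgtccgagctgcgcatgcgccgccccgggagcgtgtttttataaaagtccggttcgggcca

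The *Cxcl12* window held GGCGCC from 123 to 118 bases upstream of the start, and GGCGCC was found in 12.1% of the 15635 promoters of tested genes in windows of the same length. The *Adm* window held GTCTG from 103 to 99 bases upstream, and CAGAC or its complement was found in 41.6% of promoters. The *Cxcr4* window held CACGTG from 246 to 241 bases upstream, which counts as ACGTG on both strands at overlapping bases, and ACGTG was found in 20.3% of promoters. Elsewhere among the members, *Robo4* had CAGAC from 95 to 91 bases upstream, and *Apln*, *Aplnr*, *Esm1*, *Unc5b* and *Igfbp3* had no match in these windows. Annotated lncRNA genes on the opposite strand overlap the *Adm* and *Cxcr4* windows, and the *Cxcl12* window lies downstream of a further start that GENCODE gives for this gene, at base 117144945.

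*Adm* (ENSMUSG00000030790, chromosome 7, 110226868 to 110229027, plus strand, 4 exons) encodes adrenomedullin, a peptide that acts on endothelial cells through the receptor CALCRL with RAMP2 or RAMP3. In Ctrl cells it was read at 135, 167, 64.2 and 74.9 CPM in the PBS libraries of isolations 1 to 4 and at 72.2, 97.2, 38.7 and 50.2 CPM in the sENG(M):BMP9 libraries. Every ligand library was lower than the PBS library of its isolation, at 53.5% to 67.0% of its level, although the ranges of both groups overlapped, with isolations 1 and 2 above isolations 3 and 4 in each. The fitted change was a fall by 0.75 on the log2 scale (SE 0.053, 95% interval -0.86 to -0.64, n = 4 isolations, edgeR adjusted p = 9.8e-09). In KO cells the levels were 155, 176, 73.8 and 79.9 CPM in PBS and 90.1, 114, 48.3 and 54.2 CPM with pro:BMP9. Again each of the 4 ligand libraries was lower, and *Adm* fell by 0.65 on the log2 scale (SE 0.052, interval -0.76 to -0.54, edgeR adjusted p = 1.1e-07).

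*Adm* was also the member nearest to the threshold between KO and Ctrl cells. With ligand, it was higher in KO cells in 4 of 4 isolations, by 0.24 on the log2 scale (SE 0.054, interval 0.13 to 0.36), with an edgeR adjusted p of 0.060. In PBS the difference was 0.14 (SE 0.051, interval 0.035 to 0.25, adjusted p = 0.57), also in 4 of 4 isolations. The test of the difference between both ligand responses gave 0.10 (interval -0.056 to 0.26, adjusted p = 1.00), so a smaller fall in KO cells was not shown. Adjusted p for the comparison with ligand lay between 6.1e-05 and 1.00 over 11 alternatives, and 4 of them passed the threshold. These were DESeq2 (0.016), no filter on low counts (4.6e-04), the fit without isolation 4 (0.011) and an approximation of the steps of the study (6.1e-05). That approximation removed isolation differences as an assumed batch and then used DESeq2 without a block. 2 lncRNA genes, Gm28863 and Gm72687, overlap *Adm* on the opposite strand. The libraries kept strand, but the strand setting of the read counting was not given in the sources used here.

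*Pdgfb* (ENSMUSG00000000489, chromosome 15, 79880075 to 79899178, minus strand, 7 exons) encodes PDGF-B, which tip cells secrete to recruit pericytes. It was read at 91.8, 130, 76.1 and 121 CPM in Ctrl PBS and at 135, 188, 114 and 148 CPM in Ctrl sENG(M):BMP9. The ligand library was higher in each isolation, at 122% to 150% of the PBS level, and the fit gave a rise of 0.49 on the log2 scale (SE 0.068, interval 0.34 to 0.63, edgeR adjusted p = 5.7e-05). In KO cells the values were 121, 130, 79.3 and 126 CPM in PBS and 154, 159, 105 and 150 CPM with pro:BMP9, with isolation 3 apart from the others in both groups. Here *Pdgfb* rose by 0.32 (SE 0.068, interval 0.18 to 0.46, edgeR adjusted p = 0.0055), in 4 of 4 isolations. This call was lost without isolation 3, with a change of 0.29 and an adjusted p of 0.057. The response was smaller in KO cells in each isolation, by 0.17 in the fit, but the interval of that difference ran from -0.37 to 0.035 (adjusted p = 1.00). The microRNA gene Mir7213 lies within *Pdgfb* on the same strand and the lncRNA gene Gm41361 on the opposite strand.

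*Cxcl12* (ENSMUSG00000061353, chromosome 6, 117145496 to 117158328, plus strand, 4 exons) encodes the chemokine that guides CXCR4-bearing cells. Its levels in Ctrl PBS were 123, 136, 53.5 and 56.3 CPM, and in Ctrl sENG(M):BMP9 they were 143, 174, 62.9 and 72.9 CPM. KO cells gave 122, 136, 56.6 and 52.2 CPM in PBS and 147, 167, 63.6 and 65.7 CPM with pro:BMP9. In each isolation and both genotypes the ligand library was higher, while isolations 1 and 2 were above isolations 3 and 4 in every group. *Cxcl12* rose by 0.30 on the log2 scale in Ctrl cells (SE 0.045, interval 0.20 to 0.39, edgeR adjusted p = 1.3e-04) and by 0.27 in KO cells (SE 0.045, interval 0.17 to 0.36, adjusted p = 6.4e-04). The responses differed by -0.029, with an interval of -0.16 to 0.10. *Cxcl12* is also expressed by fibroblasts and mural cells. Isolation 2, where it was highest in each group, had the lowest summed level of their markers, and the part of those cells in its level was not tested.

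*Cxcr4* (ENSMUSG00000045382, chromosome 1, 128515936 to 128520030, minus strand, 2 exons) encodes the CXCL12 receptor of tip cells and was read from 39 to 305 counts. In Ctrl cells it stood at 9.23, 20.0, 4.92 and 5.38 CPM in PBS and at 11.6, 16.9, 2.62 and 2.89 CPM with sENG(M):BMP9. With ligand, isolations 3 and 4 stood at 54.3% and 54.8% of their PBS level, isolation 2 at 84.4% and isolation 1 at 126%. The fitted change was -0.29 on the log2 scale with an SE of 0.18 (interval -0.67 to 0.095, edgeR adjusted p = 0.44). In KO cells the levels were 10.4, 18.8, 4.81 and 7.73 CPM in PBS and 8.83, 11.3, 2.53 and 3.60 CPM with pro:BMP9. All 4 isolations were lower, at 85.1%, 60.4%, 53.8% and 47.4% of the PBS level, and *Cxcr4* fell by 0.72 (SE 0.19, interval -1.11 to -0.32, adjusted p = 0.028).

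The *Cxcr4* call in KO cells was lost in 4 of 11 alternatives, the most of the members that passed. It was lost without the block, without isolation 2 (adjusted p = 0.18), without isolation 3 (0.10) and without isolation 4 (0.078), while the change stayed between -0.92 and -0.59 over the 11 alternatives. The change was lower in KO than in Ctrl cells in 4 of 4 isolations, by 0.43 in the fit, but the interval of the difference ran from -0.98 to 0.13 (edgeR adjusted p = 1.00), so a difference between the genotypes was not shown. *Ackr3*, the scavenging receptor of CXCL12, was far more abundant per length (47.9 FPKM) and did not pass the test with ligand, at -0.13 in Ctrl cells and -0.053 in KO cells (adjusted p = 0.19 and 0.81).

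The other 6 genes did not pass the test with either ligand. *Apln* (ENSMUSG00000037010, chromosome X, 47114023 to 47123730, minus strand, 3 exons), the apelin gene, was the steadiest of all 10: its counts lay between 1112 and 1499 and its level between 66.7 and 91.1 CPM in the 16 libraries. Its log2 change amounted to 0.035 in Ctrl cells (interval -0.067 to 0.14) and to 0.027 in KO cells (interval -0.075 to 0.13), so a change as large as that of *Pdgfb* in Ctrl cells lay outside both intervals. *Aplnr* (ENSMUSG00000044338, chromosome 2, 84966569 to 84970267, plus strand, 1 exon), the apelin receptor gene, had 5, 3, 25 and 8 counts in Ctrl PBS and 4, 2, 16 and 6 in Ctrl sENG(M):BMP9. In KO cells it had 2, 4, 16 and 11 counts in PBS and 4, 6, 9 and 5 with pro:BMP9. At this depth no change of *Aplnr* was detectable, with intervals of -1.39 to 0.25 in Ctrl cells and -1.17 to 0.58 in KO cells. The lncRNA gene Lrrc55os overlaps it on the same strand, so its few reads may belong to either gene. *Apela*, the gene of the other apelin receptor ligand, had 0 to 5 counts and was not tested.

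*Unc5b* (ENSMUSG00000020099, chromosome 10, 60598372 to 60667360, minus strand, 17 exons) and *Robo4* (ENSMUSG00000032125, chromosome 9, 37313193 to 37326411, plus strand, 18 exons) encode guidance receptors that bind each other on endothelial cells. Gm19972, an unverified transcript, overlaps *Unc5b* on the same strand. *Unc5b* was read at 682, 672, 402 and 191 CPM in Ctrl PBS, at 698, 614, 438 and 248 CPM in Ctrl sENG(M):BMP9, at 674, 606, 395 and 210 CPM in KO PBS and at 674, 607, 429 and 250 CPM in KO pro:BMP9. Its log2 change with ligand was 0.093 in both genotypes (intervals -0.032 to 0.22 each, adjusted p = 0.45 and 0.57). *Robo4* was read at 257, 326, 89.6 and 95.5 CPM in Ctrl PBS, at 280, 327, 96.6 and 93.5 CPM in Ctrl sENG(M):BMP9, at 311, 337, 96.3 and 102 CPM in KO PBS and at 338, 328, 101 and 94.5 CPM in KO pro:BMP9. Isolations 1 and 2 exceeded isolations 3 and 4 for both genes in all 4 groups. The change of *Robo4* with ligand amounted to 0.052 in Ctrl cells (interval -0.057 to 0.16) and to 0.017 in KO cells (interval -0.091 to 0.13).

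*Esm1* (ENSMUSG00000042379, chromosome 13, 113346193 to 113354632, plus strand, 3 exons) encodes endocan, a secreted proteoglycan induced by vascular endothelial growth factor. It had 73, 192, 11 and 6 counts in Ctrl PBS, 117, 201, 19 and 8 in Ctrl sENG(M):BMP9, 123, 186, 26 and 12 in KO PBS and 106, 181, 18 and 20 in KO pro:BMP9. The log2 change amounted to 0.31 in Ctrl cells (SE 0.20, interval -0.12 to 0.74), with 4 of 4 isolations higher, and -0.046 in KO cells (SE 0.20, interval -0.47 to 0.38). No change of *Esm1* with ligand was detectable at this depth, with 6 to 26 counts in the libraries of isolations 3 and 4. *Gzmk* overlaps it on the opposite strand. *Igfbp3* (ENSMUSG00000020427, chromosome 11, 7156086 to 7163923, minus strand, 5 exons) had 4078 to 12224 counts and showed differences of 0.0056 in Ctrl cells (interval -0.098 to 0.11) and -0.069 in KO cells (interval -0.17 to 0.035). Its 4 group means lay between 457 and 494 CPM. Gm73927 and Gm36565, both lncRNA genes, overlap it on the opposite strand.

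Between KO and Ctrl cells, none of the 10 genes passed the edgeR test, either in PBS, where 3 of all tested genes passed (0.0191%, *Eng*, *Dcn* and *Col3a1*, all lower, the last named after its values were seen), or with ligand, where 40 passed (0.255%), 14 higher (0.0892%) and 26 lower (0.166%). The same direction in 4 of 4 isolations held for 15.2% of all tested genes in either comparison. In PBS, 3 of the 10 genes had an unadjusted p under 0.05, and all 3 were higher in KO cells in 4 of 4 isolations: *Igfbp3* by 0.14 (interval 0.033 to 0.24), *Adm* by 0.14 and *Robo4* by 0.13 (interval 0.022 to 0.24) on the log2 scale. Their adjusted p-values were 0.58, 0.57 and 0.64. With ligand, *Adm* was the one member with an unadjusted p under 0.05. Over all 15693 tested genes, 1071 had an unadjusted p under 0.05 in PBS and 1454 with ligand. DESeq2 called none of the 10 in PBS and *Adm* with ligand, and *Igfbp3* in PBS passed in 1 of 11 alternatives, the fit without a filter on low counts (adjusted p = 0.037). The median log2 difference of the 10 genes was 0.13 in PBS and -0.0075 with ligand, against -0.00089 and 0.00072 over all tested genes. *Esm1* was higher in KO PBS than in Ctrl PBS in isolations 1, 3 and 4, with a fitted difference of 0.41 (interval -0.018 to 0.84, adjusted p = 0.75), and the isolation with the most *Esm1* reads, isolation 2, did not share it. These comparisons use the same libraries as the ligand comparisons, so their values are not independent of them.

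The summed level of the mural and fibroblast markers was lower in KO cells, with medians of 508 CPM in PBS and 518 CPM with ligand against 699 and 712 CPM in Ctrl cells, and its part in the differences between KO and Ctrl cells was not tested. Of the 9 markers, *Dcn* passed as lower in KO cells in PBS, and *Dcn* and *Pdgfrb* passed with ligand. None of the 9 passed with ligand against PBS in either genotype, nor did the tested leukocyte, epithelial, mesothelial and lymphatic markers (2, 3, 3 and 5 genes), which passed between KO and Ctrl cells in neither condition. Of the 9 endothelial markers, 2 were higher with ligand in Ctrl cells and 1 in KO cells.

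**Figure D3:**
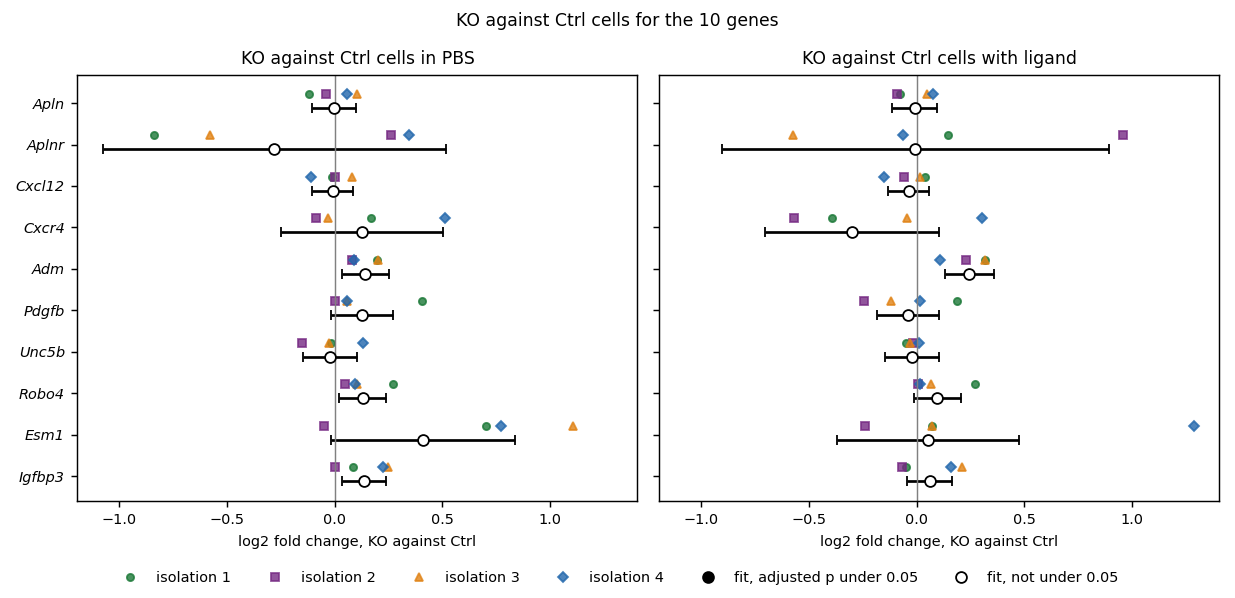
Log2 difference of each gene between KO and Ctrl cells, in PBS (left) and with ligand (right), with small coloured markers for the 4 isolations and open circles with bars for the fit and its 95% interval. No circle is filled, because no adjusted p was under 0.05, and the interval of *Adm* lies above 0 in both panels.

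The test of the difference between the ligand responses, KO minus Ctrl, called none of the 10 genes and none of all tested genes (0.0%) with edgeR, and 13.4% of all tested genes differed in the direction of the fit in 4 of 4 isolations. At an unadjusted p under 0.05 it counted 565 of all tested genes and none of the 10, and DESeq2 with the isolation as a block called none of the 10 or of all genes. The median difference of the 10 genes was -0.032, beside 0.0030 over all tested genes. The widest intervals belonged to *Aplnr* (-0.93 to 1.48), *Esm1* (-0.96 to 0.25) and *Cxcr4* (-0.98 to 0.13), and the narrowest to *Cxcl12* (-0.16 to 0.10), *Apln* (-0.15 to 0.14) and *Igfbp3* (-0.22 to 0.072).

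More of the variation of each of the 10 genes lay between isolations than between groups. For *Robo4*, 99.0% of the sum of squares of log2 CPM over the 16 libraries lay between isolations, and for *Unc5b*, *Igfbp3*, *Esm1* and *Cxcl12* it was 97.9%, 97.7%, 95% and 94.6%. Over all tested genes the median share was 63.8%, with 8.79% between groups. *Pdgfb* (56.9% between isolations, 36.3% between groups) and *Adm* (67.9% and 31.2%) were the members with the largest share between groups. The ratio of the highest to the lowest isolation mean was 17.5 for *Esm1*, 4.51 for *Cxcr4*, 4.12 for *Aplnr*, 3.43 for *Robo4* and 3.03 for *Unc5b*, against 1.62 for *Pdgfb* and 1.24 for *Apln*. Isolation 2 was highest for 7 of the 10 genes, isolation 1 for *Apln* and *Unc5b*, and isolation 3 for *Aplnr*. Isolation 3 was lowest for 7 genes, isolation 4 for *Esm1* and *Unc5b*, and isolation 1 for *Aplnr*. The endothelial markers had their highest summed level in isolation 2 as well (median 6942 CPM) and their lowest in isolation 3 (3471 CPM), a 2.0-fold range, and their part in the order of the isolations was not tested. The lymphatic markers *Prox1*, *Flt4* and *Pdpn* were higher in isolations 1 and 2 than in isolations 3 and 4. The part of lymphatic cells in that order was not tested either.

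**Figure D4:**
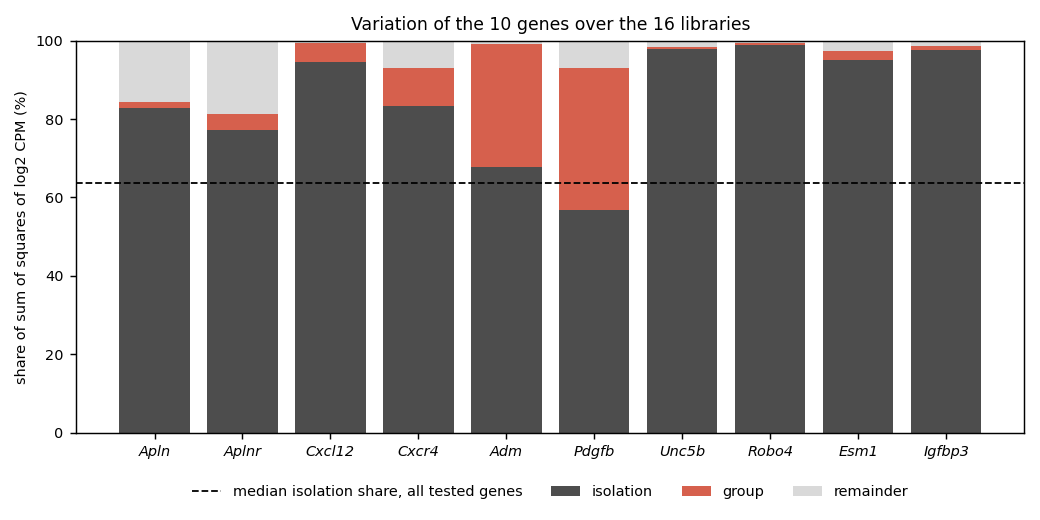
Share of the sum of squares of log2 CPM over the 16 libraries that lay between isolations, between groups and in the remainder, in percent, for each of the 10 genes, with a dashed line at the median isolation share of all tested genes (63.8%). *Adm* and *Pdgfb* carry the widest group segments, 31.2% and 36.3%, and *Pdgfb* alone lies under the dashed line.

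The receptors and other partners of the 10 genes were followed from a list of 12 genes, of which 10 were tested. With sENG(M):BMP9 in Ctrl cells, 2 were higher and 1 lower, and all 3 belong to the adrenomedullin receptor. The share that passed over all tested genes was 9.69%. *Calcrl* (36.8 FPKM), its G protein-coupled subunit, fell from a mean of 205 ± 25.6 CPM to 160 ± 23.3 CPM (SD, n = 4), by 0.36 on the log2 scale (SE 0.039, edgeR adjusted p = 2.2e-06). *Ramp2* and *Ramp3*, whose products make that receptor respond to adrenomedullin, rose by 0.20 (SE 0.038, adjusted p = 0.0012) and 0.24 (SE 0.067, adjusted p = 0.028). In KO cells *Calcrl* fell by 0.21 (SE 0.039, adjusted p = 0.0017), while *Ramp2* and *Ramp3* stood at 0.026 and 0.086 (adjusted p = 0.89 and 0.67). *Ramp3* was already higher in KO than in Ctrl cells in PBS, by 0.33 (interval 0.19 to 0.47, adjusted p = 0.21). With ligand it was higher by 0.18 (interval 0.045 to 0.32, adjusted p = 0.30). *Ramp2* differed by 0.12 in PBS (interval 0.039 to 0.20, adjusted p = 0.49) and by -0.057 with ligand (adjusted p = 0.73). None of these differences between KO and Ctrl cells passed. The differences between the responses were 0.16 for *Calcrl* (interval 0.040 to 0.27), -0.18 for *Ramp2* (interval -0.29 to -0.062) and -0.15 for *Ramp3* (interval -0.34 to 0.045), none of which passed after adjustment (adjusted p = 1.00 each). *Ramp2* overlaps *Vps25* on the same strand, so some of its reads may belong to that gene, and *Ramp1* had 0 to 5 counts.

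*Pdgfrb*, the PDGF-B receptor of mural cells, was the one partner that passed between KO and Ctrl cells, lower in KO cells with ligand by 0.29 on the log2 scale (SE 0.055, edgeR adjusted p = 0.029), in 4 of 4 isolations. It changed by 0.16 with sENG(M):BMP9 and 0.047 with pro:BMP9 (adjusted p = 0.082 and 0.85). The remaining partners passed in no comparison: *Ntn4* (33.8 FPKM), which encodes a netrin, *Igf1r* (5.85 FPKM), the receptor of insulin-like growth factors, and the SLIT and ROBO genes *Slit3* (4.47 FPKM), *Robo1* (1.94 FPKM) and *Slit2* (1.00 FPKM). *Ntn4* came nearest, higher in KO than in Ctrl cells by 0.25 in PBS and 0.18 with ligand in 4 of 4 isolations (adjusted p = 0.18 and 0.11).

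Beyond the 10 genes, 35 other genes linked to tip cells were listed, and those that passed went in both directions. With sENG(M):BMP9 in Ctrl cells 6 were higher and 6 lower, and with pro:BMP9 in KO cells 3 were higher and 5 lower, with medians of -0.0088 and -0.0057. Over all tested genes, 9.69% passed in Ctrl cells and 5.59% in KO cells. *Kdr*, the main receptor of vascular endothelial growth factor, rose by 0.92 (SE 0.14, edgeR adjusted p = 1.0e-04) in Ctrl cells and 0.76 (SE 0.14, adjusted p = 0.0012) in KO cells, and *Clec14a*, an endothelial adhesion lectin, rose by 0.84 (SE 0.068) and 0.83 (SE 0.068). *Adamts1*, a secreted protease, fell by 0.88 (SE 0.041) and 0.73 (SE 0.041), and *Dll4*, the Notch ligand of tip cells, fell by 0.68 (SE 0.10) and 0.65 (SE 0.10). These 4 genes were named for the largest changes among those that passed and changed alike in 4 of 4 isolations. Their agreement between isolations was thus set by the choice. None of the 35 passed between KO and Ctrl cells, where 0.0191% of all tested genes passed in PBS and 0.255% with ligand.

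**Figure D5:**
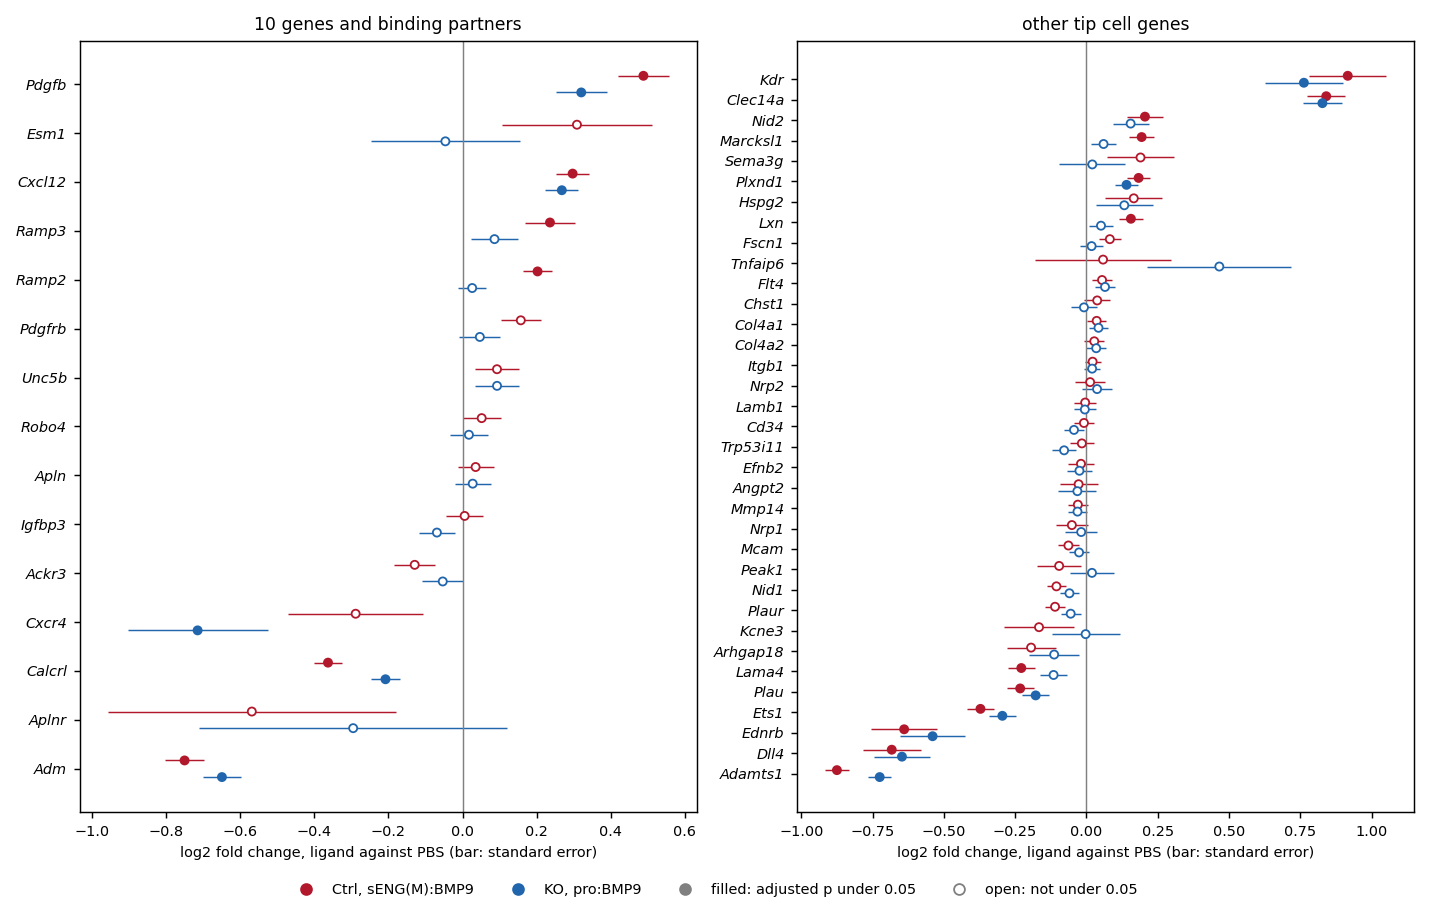
Log2 fold change with ligand against PBS in Ctrl cells (red) and KO cells (blue), with bars for the standard error and filled circles for an adjusted p under 0.05, for the 10 genes with *Ramp2*, *Ramp3*, *Pdgfrb*, *Ackr3* and *Calcrl* (left) and the 35 other tip cell genes (right). *Pdgfb* tops the left panel and *Adm* ends it, and *Kdr* and *Clec14a* lie above 0.7 while *Adamts1* and *Dll4* lie under -0.6 in the right panel.

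The genes of stalk and quiescent (phalanx) endothelial cells that passed with ligand were all higher. Of 21 listed, 20 were tested, with 6 higher and none lower in Ctrl cells and 5 higher and none lower in KO cells, and medians of 0.090 and 0.093. Over all tested genes, 5.86% passed as higher in Ctrl cells and 3.68% in KO cells. *Hey1*, a Notch and BMP target that encodes a repressor, rose by 3.55 (SE 0.14) and 2.82 (SE 0.15), and *Smad6*, which encodes an inhibitor of BMP signalling, by 3.45 (SE 0.061) and 3.21 (SE 0.061). *Hey2* rose by 1.44 (SE 0.28) and 1.86 (SE 0.30) and *Hes1* by 0.93 (SE 0.10) and 0.95 (SE 0.10). *Heyl* rose by 1.5 (SE 0.39) in Ctrl cells, and its change in KO cells was 1.11 (SE 0.37, edgeR adjusted p = 0.11), higher in 4 of 4 isolations but not past the threshold. *Hey1* was lower in KO than in Ctrl cells with ligand by 0.73 (SE 0.11, edgeR adjusted p = 0.0084). Among 13 known BMP9 targets, 8 were higher and 1, *Dll4*, was lower in each genotype, with medians of 1.58 and 1.86. The higher ones included *Atoh8* (3.64 and 3.62) and *Smad7* (2.87 and 2.85). *Hey1* and *Smad6* are on both this list and the stalk and phalanx list, so the counts of these lists are not independent. Both lists were also chosen with earlier results of these data known. The paper itself reports *Smad6*, *Smad7* and *Atoh8* as induced in these cells. The direction of the listed genes was thus partly set by the choice, and their counts are no independent test against all tested genes.

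Of the genes that low oxygen induces, a class to which *Adm* belongs, 26 hypoxia targets were listed. In Ctrl cells 4 were higher and 3 lower, in KO cells 2 were higher and 3 lower, and the medians were 0.0033 and -0.0054. Over all tested genes, 9.69% passed in Ctrl cells and 5.59% in KO cells. *Vegfa* rose by 0.75 (SE 0.081) and 0.65 (SE 0.082) and *Ddit4* by 0.59 and 0.46 (SE 0.088 each), whereas *Hilpda* fell by 0.63 (SE 0.073) and 0.42 (SE 0.072) and *Ankrd37* by 0.63 (SE 0.14) and 0.76 (SE 0.14). The targets that passed thus went in both directions, with *Vegfa*, which drives tip cells, higher and *Hilpda* and *Ankrd37* lower, as *Adm* was.

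The genes whose levels were most like those of the 4 moving members were found from the root-mean-square difference of log2 CPM, centred on each isolation, over the 16 libraries and 15692 genes. For *Adm* these were *Bbc3*, *Gbp4* and *Slc10a6*, at 0.069, 0.082 and 0.084, where the median over all genes was 0.39. For *Pdgfb* they were *Cebpb*, *P2ry2* and *Icam1* (0.082, 0.083 and 0.084, median 0.27), and for *Cxcl12* they were *Bicral*, *Fbxl14* and *Dusp4* (0.046, 0.047 and 0.050, median 0.20). The nearest to *Cxcr4* were *Slitrk2*, *Rgs2* and *Emx2*, at 0.21, 0.22 and 0.24 (median 0.41), farther than the nearest to *Adm*, *Cxcl12* and *Pdgfb*.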

How the data were processed

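RNA sequencing counts of 16 MLEC libraries (4 groups, 4 isolations) were re-analysed. The authors deposited raw read counts per gene without normalisation. Per the submitters' processing notes and the methods, paired-end reads of stranded libraries were aligned to GRCm39 with HISAT2 2.0.5 and counted with featureCounts 1.5.0-p3. The annotation release and strand setting are not given in the sources used here. The quantile normalisation, ComBat and DESeq2 1.26.0 steps of the study are not in the deposited counts.

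Samples were grouped by their labels. Replicate numbers follow the isolation in the library names, and same-numbered libraries deviated together (lowest correlation 0.67, mean 0.757, over 24 pairs), so the isolation was a block. Genes were filtered with filterByExpr (minimum count 10, minimum total 15), which left 15693 of 29339 genes with a count, scaled by TMM and tested with the quasi-likelihood F-test of edgeR 4.0.16 (R 4.3.3, limma 3.58.1) over all 16 libraries, with Benjamini-Hochberg adjustment and a threshold of 0.05. SE values are the log2 fold change divided by the root of F. Values per isolation use log2 CPM with a prior count of 2. The procedure was tested on simulated data. The promoter of 1 member is not reported here.

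The 10 members and all gene lists (partners, other tip cell, stalk and phalanx, hypoxia, BMP9 target and marker genes) were chosen with earlier results of these data known. Their counts therefore describe these lists and are no independent test against the share of all tested genes. Genes named from lists were up to 4 per list and comparison with the largest change among those called and alike in 4 of 4 isolations. *Eng*, the markers quoted with their levels and the genes most like a moving member were also named. Alternatives were no replicate block, DESeq2 1.42.0 with the block, RLE size factors, no filter, at least 10 counts in every library, only the 8 libraries compared, quantile normalisation with ComBat (sva 3.50.0, isolation as batch, an assumption) and DESeq2, and each isolation left out. The quantile normalisation alternative only approximates the steps of the study. Genes were filtered first, corrected values were rounded, and DESeq2 1.42.0 was run with no block.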

Additional observations from a re-analysis of the deposited data

Results flagged for a closer look

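In 40 groups of 4 libraries (10 genes in 4 groups), the gap between the lowest or highest library and its neighbour was compared with the range of the group on the log2 CPM scale, and chance flags about 1 in 20 groups. 2 groups had a sample far from the others by Dixon's criterion (critical value 0.829), and both were *Pdgfb* in KO cells. In KO PBS the ratio was 0.865 and in KO pro:BMP9 it was 0.858, and in both the library of isolation 3 was the low one, at 79.3 CPM and 105 CPM. Isolation 3 also had the lowest *Pdgfb* level in both groups of Ctrl cells, where the ratio did not pass. Both libraries come from the same cells, so the 2 flags are not independent, and the endothelial markers were lowest in isolation 3 as well (median 3471 CPM), whose part in it was not tested.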

How the results depend on the processing

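Of 521 values of the 10 genes under the alternatives, 474 kept their direction and their side of the threshold, 31 changed sign, 11 lost and 5 gained a call. No member that passed changed sign. Without the isolation as a block, *Adm*, *Pdgfb*, *Cxcl12* and *Cxcr4* all lost their calls (0 members in either ligand comparison), and all genes called numbered 167 and 91 with ligand in Ctrl and KO cells and 1 each between KO and Ctrl cells in PBS and with ligand; this fit leaves the differences between isolations in the residual. It turned *Igfbp3* in Ctrl cells to -0.0092 and *Esm1* between KO and Ctrl cells with ligand to -0.047. With 3 of 4 isolations, members called with pro:BMP9 numbered 2 to 4, and between KO and Ctrl cells with ligand 0 to 1 (*Adm*, without isolation 4). All genes called then numbered 573 to 745 with pro:BMP9, 1 to 69 between KO and Ctrl cells in PBS and 6 to 175 with ligand, the highest both without isolation 4.

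*Adm* between KO and Ctrl cells with ligand was the 1 member called by DESeq2 with the block and by the fit with no filter. It was also the 1 member called by the approximated steps of the study. *Igfbp3* in PBS was the 1 called with no filter. The causes of these calls were not tested. All genes called in PBS between KO and Ctrl cells were 7 with DESeq2, 204 with no filter, 176 with the steps of the study and 1 with only the 8 libraries. With ligand they were 141, 517 and 542 under the first 3 of these, the difference of responses had 52 with no filter and 14 with the steps of the study, and pro:BMP9 had 1406 with the latter.

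The sign changes were all of values near 0 or from few counts. The approximated steps of the study gave -0.023 for *Igfbp3* with sENG(M):BMP9, and 0.066 for *Esm1* and -0.0057 for *Robo4* with pro:BMP9. Between KO and Ctrl cells they gave 0.0068 for *Apln* in PBS and 0.25 for *Aplnr* with ligand. *Apln* in PBS turned to 0.0014 with DESeq2, 0.0015 with RLE size factors and 0.00029 with no filter, *Aplnr* with ligand to 0.12 with DESeq2 and 0.030 with no filter, and the difference of responses of *Unc5b* to -0.0043 with DESeq2 and -0.0040 with RLE size factors. Leaving out 1 isolation moved *Igfbp3* between -0.026 and 0.033 with sENG(M):BMP9 and, with pro:BMP9, *Robo4* between -0.030 and 0.055, *Esm1* between -0.14 and 0.0087 and *Apln* between -0.014 and 0.055. Between KO and Ctrl cells in PBS the ranges were -0.035 to 0.037 for *Apln*, -0.065 to 0.027 for *Unc5b* and -0.035 to 0.022 for *Cxcl12*, and with ligand -0.040 to 0.013 for *Apln*, -0.12 to 0.026 for *Pdgfb*, -0.32 to 0.020 for *Aplnr* and -0.081 to 0.32 for *Esm1*. For the difference of responses they were -0.054 to 0.033 for *Unc5b* and -0.026 to 0.0064 for *Apln*. Counting depth limits *Aplnr* (2 to 25 counts), *Esm1* (6 to 201) and *Cxcr4* (39 to 305). *Aplnr* and *Esm1* did not have 10 counts in every library, so that alternative gave no value for them, and *Aplnr* had none with only the 8 libraries or without isolation 3.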
